A study of Mus musculus with 24 samples.

Results

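The liver transcriptome was compared between CT6 and CT10, the middle and the late part of the subjective day, in 8 of the 24 RNA-seq libraries of the study. Circadian time (CT) counts the hours of the internal clock in constant darkness. The members were chosen by their sample labels: 2 libraries of wild-type (WT) and 2 of delta-RRE (dRRE, here ΔRRE) liver at CT6, and as many at CT10, so that 4 libraries stood against 4 with the genotype as a term in the model. All livers came from male mice of the strain C57BL/6. ΔRRE mice carry on both alleles a CRISPR-Cas9 deletion of the 2 RREs in the 5′-UTR of *Bmal1* (*Arntl* in the tables), which is therefore missing from every cell and not from the liver alone, and WT mice have both RREs. The labels do not name the mouse line or give the ages. Nor do they say that the 2 libraries of a group came from separate animals, so the p-values measure the spread between these samples, which may be technical.

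The mammalian clock is a feedback loop of transcription. CLOCK (or its relative NPAS2) and BMAL1 bind E-boxes and activate the Per, Cry and Rev-erb genes, whose products then silence their own activators. REV-ERB proteins repress genes with RREs, among them *Bmal1*, and the PAR bZIP factors DBP, TEF and HLF activate genes with D-boxes, where NFIL3 (E4BP4) represses them. In mouse liver the E-box-driven genes are known to climb during the day, while the targets of REV-ERB fall towards its end. The comparison of CT10 with CT6 asks which liver transcripts change over this part of the day, and whether they also do so where *Bmal1* has lost its RREs.

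Each value is an FPKM (the fragments of a gene, scaled to its transcript length and to the mapped fragments of the library) as deposited for 1 library, and changes are differences of log2(FPKM + 0.1), which understate the fold of low genes. The 8 libraries summed to between 554170 and 612090 FPKM, with 19286 to 20117 genes above 0. FPKM do not keep the number of reads, so no counting error is given. Replicates correlated across genes at r = 0.961 to 0.969, and libraries of different time points at 0.947 to 0.965. One ΔRRE CT10 library, replicate 1, stood apart: its haemoglobin and other blood markers summed to 4322 FPKM, against 708 to 1395 FPKM in the other 7 libraries. Its metallothionein levels were also the highest. WT CT6 replicate 1 held more mRNA of E-box genes and of cholesterol synthesis than its replicate, as given below.

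The filter of a 1 FPKM mean left 11244 genes, of which 108 differed between CT10 and CT6 at a limma adjusted p under 0.05, which is 0.961% of the genes tested. There were 49 genes higher at CT10 (0.436%) and 59 lower (0.525%). Among the risers were the clock genes *Per1*, *Per2*, *Per3*, *Ciart*, *Dbp* and *Tef*, together with *Coq10b*, *Gpcpd1* and *Lpin1*. Among the fallers were the tubulins *Tubb2a* and *Tubb2b*, *Pdk4*, *Chka*, *Clpx* and *Nfil3*. The log2 changes of the risers ran from 0.58 to 4.09 with a median of 1.18, and those of the fallers from -0.58 to -3.38 with a median of -1.22. At least a 2-fold change was seen in 32 risers and 37 fallers, and at least a 4-fold change in 11 and 8. The median over all genes tested was 0.0045, and an unadjusted p under 0.05 was found for 765 genes upward (6.8%) and 817 downward (7.27%).

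In all 49 risers the 4 CT10 libraries lay above the 4 CT6 libraries, as they did in 4.66% of all genes tested. The same held downward for 56 of the 59 fallers, against 4.51% of all genes. Both counts follow in large part from the calls, which were made on these same 8 libraries. They are therefore not separate evidence of a change. The number of calls was far lower when any 1 of most of the 8 libraries was left out. It was 2 without ΔRRE CT6 replicate 2 and also 2 without ΔRRE CT10 replicate 2, 16 to 25 without any of WT CT6 replicate 2, WT CT10 replicate 2, ΔRRE CT6 replicate 1 or ΔRRE CT10 replicate 1, 86 and 98 without the remaining WT libraries, and 467 (4.15%) when the spread was estimated from all 24 libraries. The 108 genes kept their sign in each of these fits, but *Coq10b* alone passed the threshold whichever library was left out, and 22 of the 108 genes passed in none of the 8 reduced fits.

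**Figure D1:**
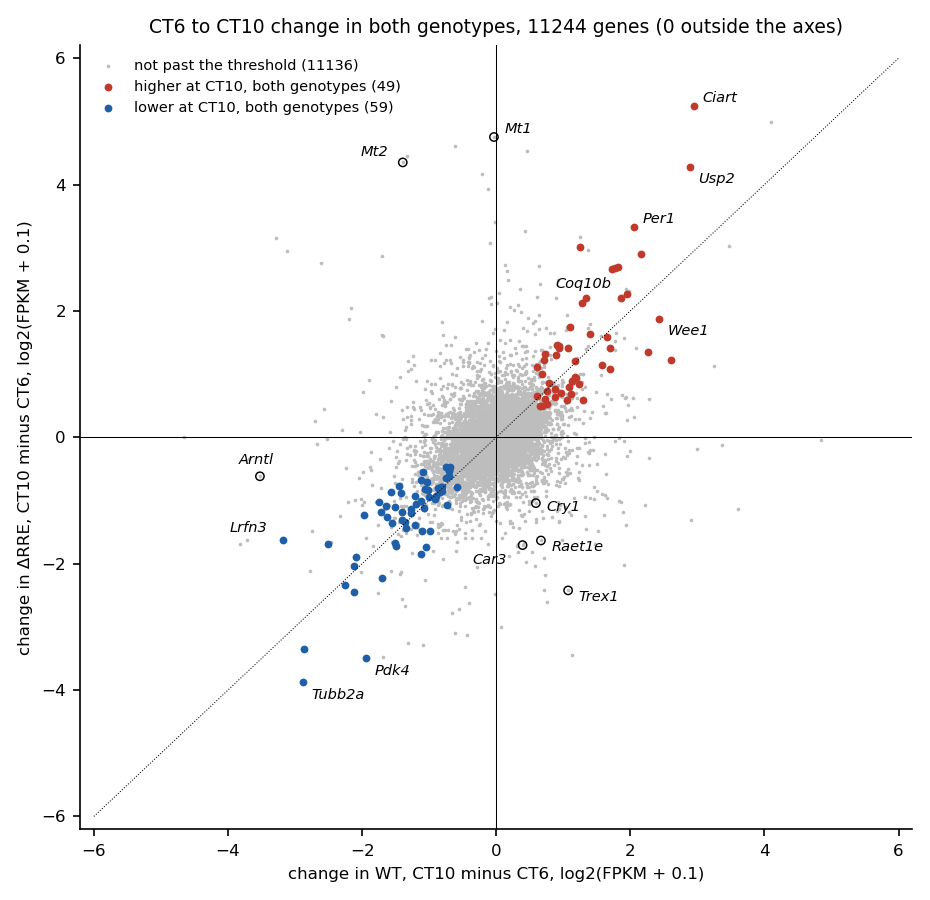
Log2 change from CT6 to CT10 in WT (horizontal axis) and in ΔRRE (vertical axis) for each of 11244 genes, from 2 libraries per group, with the diagonal of equal change dotted. The 49 risers (red) all lie to the upper right and the 59 fallers (blue) to the lower left, which follows in part from choosing them in both genotypes together. Circled genes did not pass the threshold, and *Arntl*, *Mt1*, *Mt2*, *Cry1*, *Raet1e*, *Car3* and *Trex1* lie far from the diagonal.

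The E-box and D-box sequences of some of these genes are shown because they are the elements through which the clock is known to act. RefSeq promoters (GRCm38.p6, 250 bases before to 50 after the start) were searched on both strands. The E-box was CACGTG, which reads the same on both strands, and the D-box TTATGTAA or TTACGTAA, which does not overlap with it. The RRE, the cAMP response element TGACGTCA and the heat shock element were searched the same way. Entries were found for 35 of 49 risers and 41 of 59 fallers, under 80% of each, so a comparison of the gene sets is void. In all 32851 promoters of the table, 7.15% held the E-box, 1.06% the D-box, 0.384% the RRE, 1.79% the cAMP response element and 0.603% the heat shock element. In the 10522 promoters of genes tested, the E-box share was 10.2% and the D-box share 0.798%. There the RRE stood in 0.219%, the cAMP response element in 3.05% and the heat shock element in 0.513%. A match is a description of these letters and not a binding site. Each line below reads 5′ to 3′ along the gene, with the motif in capitals.
Ciart E-box 1: gcagaaccgCACGTGtctgggagg
Ciart E-box 2: agggggaggCACGTGcagaaccgc
Ciart E-box 3: atctagagtCACGTGttgccggta
Per1 E-box: acccaagtcCACGTGcagggatgt
Coq10b E-box: ggcactggaCACGTGcgtcagcct
Coq10b D-box: cacgaagaTTACATAAgtggcaga
Per3 D-box 1: gcccgcggTTATGTAAcccccgcc
Per3 D-box 2: cccgcgcgTTATGTAAggtactcg
Tef E-box 1: ctgtggctcCACGTGctgcagctg
Tef E-box 2: ctggcccagCACGTGtctacatcg
Pfkfb3 E-box: ccttctctcCACGTGaaagggggc
Tjp3 E-box: ctgtctggcCACGTGagagcacct
Cgn E-box: ccaccagtcCACGTGaccccaccg
Tubb2a cAMP response element: tgcccccaTGACGTCAgcgggact
Arntl RRE: aggcagAAAGTAGGTCAgggacg

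The 3 E-boxes of *Ciart* lie at chr3:95882258-95882281, chr3:95882272-95882295 and chr3:95882330-95882353, within 116 bases upstream of its start. The E-box of *Per1* is at chr11:69098774-69098797, that of *Coq10b* at chr1:55052683-55052706 and that of *Pfkfb3* at chr2:11502129-11502152. *Tef* has 2 promoters in the table, and each held 1 E-box, at chr15:81802537-81802560 and chr15:81811267-81811290. The D-boxes of *Per3* are at chr4:151044808-151044831 and chr4:151044855-151044878, and that of *Coq10b* at chr1:55052600-55052623, so *Coq10b* held both elements. The E-box also stood in promoters of fallers, for example *Tjp3* (chr10:81291308-81291331) and *Cgn* (chr3:94786653-94786676). The cAMP response element of the largest faller, *Tubb2a*, is at chr13:34078052-34078075, and no promoter of a riser or faller in the table held the heat shock element. In *Coq10b* the D-box lies on the other strand, so its line shows the complement read backwards. The RRE of *Arntl*, 26 bases after its start at chr7:113207531-113207553, is an element of the kind that ΔRRE mice lack.

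*Bmal1* itself, whose RREs were removed, is given before the other clock genes. Its level does not show the deletion directly, since the rest of the transcript was counted too. *Arntl* (chr7:113207465-113314126, plus strand) stood at 2.42 and 2.86 FPKM in WT and 3.01 and 4.21 FPKM in ΔRRE at CT6. At CT10 it stood at 0.195 and 0.0919 FPKM in WT and 2.50 and 2.096 FPKM in ΔRRE. The WT libraries were thus far lower at CT10 than at CT6, with the lowest value of 0.0919 FPKM below the constant of 0.1, and the ΔRRE libraries were lower by less. In WT alone the log2 change was -3.52 (limma adjusted p = 0.0466), and in ΔRRE it was -0.62.

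The other activators of the clock also had lower mean values at CT10. *Clock* was at 5.40 and 4.67 FPKM in WT and 5.08 and 5.06 FPKM in ΔRRE at CT6 and at 2.28 and 2.01 FPKM in WT and 1.83 and 5.02 FPKM in ΔRRE at CT10 (log2 change -0.95 ± 0.28 SE, limma adjusted p = 0.170). One ΔRRE library at CT10 stayed at the CT6 level, so the groups overlapped. *Npas2* was at 0.510 and 0.500 FPKM in WT and 0.865 and 3.38 FPKM in ΔRRE at CT6, and at CT10 it was listed at 0 FPKM in 1 WT library and reached at most 0.486 FPKM in the other, just under the lowest CT6 value (log2 change -2.29 ± 0.72 SE, limma adjusted p = 0.196). None of the 3 activators was called in the fit of 8 libraries, while *Clock* and *Npas2* passed the threshold when the spread came from all 24 libraries. In that fit 255 of the 11244 genes tested were called lower. The median change of the 3, -2.07, is the pooled value of *Arntl*. Within the genotypes the medians were -1.32 in WT and -0.71 in ΔRRE.

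Repressors of the clock and other E-box outputs held more calls than any other list examined. Of the 11 listed genes 10 passed the filter on low values. Of these 5 rose and none fell, beside 0.436% of all genes tested called higher and 0.525% called lower. The median change was 1.27, against 0.0045 over all genes. *Ciart* (chr3:95878503-95882251, minus strand), which encodes the repressor CHRONO, was at 5.42 and 0.636 FPKM in WT and 0.427 and 0.344 FPKM in ΔRRE at CT6. It was at 13.4 and 17.7 FPKM in WT and 22.5 and 14.6 FPKM in ΔRRE at CT10 (log2 change 4.09 ± 0.65 SE, limma adjusted p = 0.0309). WT CT6 replicate 1 was the highest of the CT6 libraries, yet below all those of CT10. *Usp2*, a ubiquitin protease that acts on clock proteins, went from 5.01 and 1.32 FPKM in WT and 1.42 and 0.3899 FPKM in ΔRRE to 19.6 and 20.02 FPKM in WT and 14.9 and 18.7 FPKM in ΔRRE (log2 change 3.59 ± 0.49 SE, limma adjusted p = 0.0221). The 4 CT10 libraries of *Usp2* lay close together, and the CT6 libraries were widely spread.

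The 3 Period genes encode the repressors that shut CLOCK and BMAL1 off. *Per1* (chr11:69095217-69109960, plus strand) was at 2.74 and 1.07 FPKM in WT and 1.07 and 1.13 FPKM in ΔRRE at CT6 and at 6.94 and 8.05 FPKM in WT and 13.0 and 10.9 FPKM in ΔRRE at CT10 (log2 change 2.69 ± 0.33 SE, limma adjusted p = 0.0197). *Per3* went from 4.40 and 1.49 FPKM in WT and 1.496 and 0.825 FPKM in ΔRRE to 10.5 and 8.23 FPKM in WT and 8.42 and 7.20 FPKM in ΔRRE (log2 change 2.26 ± 0.35 SE, limma adjusted p = 0.0296). *Per2* went from 2.46 and 1.69 FPKM in WT and 0.782 and 1.22 FPKM in ΔRRE to 6.12 and 9.59 FPKM in WT and 5.06 and 4.69 FPKM in ΔRRE (log2 change 2.03 ± 0.22 SE, limma adjusted p = 0.0179). None of the 3 overlapped between the time points. *Per1* was higher at CT10 in ΔRRE than in WT, whereas *Per2* and *Per3* had their highest CT10 value in WT.

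The remaining genes of this group did not pass. *Nr1d2* (Rev-erbβ) had a log2 change of 0.51, *Cry2* of 0.44, *Bhlhe40* of 0.44, *Nr1d1* (Rev-erbα) of -0.40 and *Cry1* of -0.23, with limma adjusted p between 0.193 and 0.811. *Nr1d1*, whose product represses RRE genes, was already high at CT6, at 45.3 ± 16.04 FPKM at CT6 and 35.0 ± 13.9 FPKM at CT10 (SD, n = 4 each). The mean of *Nr1d2* was 22.2 ± 2.07 FPKM at CT6 and 32.0 ± 6.43 FPKM at CT10 (SD, n = 4 each), with 1 WT CT10 library inside the CT6 range. *Bhlhe41* lay under the filter.

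The PAR bZIP factors and their antagonist *Nfil3* went opposite ways. *Dbp* (chr7:45705088-45710203, plus strand) was at 43.8 and 22.7 FPKM in WT and 20.003 and 7.71 FPKM in ΔRRE at CT6 and at 101 and 108 FPKM in WT and 107 and 58.5 FPKM in ΔRRE at CT10 (log2 change 2.19 ± 0.36 SE, limma adjusted p = 0.0379). Its annotated end overlaps with *Sphk2* on the other strand, which was lower at CT10 (log2 change -1.39 ± 0.21 SE, limma adjusted p = 0.0296), and whether strand was used in the counting is not given in the sources used here. *Tef* was at 34.6 and 20.3 FPKM in WT and 24.3 and 16.2 FPKM in ΔRRE at CT6, and at CT10 it was at 68.1 and 71.7 FPKM in WT and 58.0 and 65.8 FPKM in ΔRRE (log2 change 1.51 ± 0.19 SE, limma adjusted p = 0.0197). *Nfil3*, the repressor that competes for D-boxes, was at 8.58 and 5.25 FPKM in WT and 11.5 and 14.03 FPKM in ΔRRE at CT6 and at 2.91 and 3.20 FPKM in WT and 4.997 and 3.999 FPKM in ΔRRE at CT10 (log2 change -1.30 ± 0.19 SE, limma adjusted p = 0.0227). *Hlf* did not pass (log2 change 0.05, limma adjusted p = 0.941), and its pooled value averages opposite changes. It was at 6.39 and 6.35 FPKM at CT6 and 10.1 and 8.41 FPKM at CT10 in WT, and at 9.55 and 11.0 FPKM and 7.75 and 7.43 FPKM in ΔRRE, without overlap in either genotype. The difference of these changes was -0.96 ± 0.25 SE (ΔRRE minus WT) and did not pass either. Of the 4 genes, 2 were called higher and 1 lower, beside 0.436% and 0.525% of all genes tested. The called genes had no overlap of the libraries, as was seen upward in 4.66% and downward in 4.51% of all genes tested. This separation follows in large part from their being called in the same libraries.

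Further large rises were found in genes outside the core clock. *Coq10b* (chr1:55052770-55072702, plus strand), which encodes a mitochondrial coenzyme Q-binding protein, was at 9.80 and 9.04 FPKM in WT and 7.28 and 5.78 FPKM in ΔRRE at CT6. At CT10 it was at 30.2 and 44.2 FPKM in WT and 32.3 and 31.0 FPKM in ΔRRE (log2 change 2.11 ± 0.15 SE, limma adjusted p = 0.00316), the smallest p among the 108 genes. Its 4 libraries at each time point lay in a narrow band, and its adjusted p stayed between 6.93e-04 and 0.0301 when any 1 library was left out of the limma fit. *Noct*, a NADP(H) phosphatase also known as Nocturnin, went from 1.10 and 1.12 FPKM in WT and 0.533 and 0.537 FPKM in ΔRRE to 3.90 and 7.16 FPKM in WT and 3.76 and 5.67 FPKM in ΔRRE (log2 change 2.52 ± 0.26 SE, limma adjusted p = 0.0163). *Wee1*, a kinase that holds back entry into mitosis, went from 1.72 and 0.683 FPKM in WT and 0.856 and 0.697 FPKM in ΔRRE to 7.94 and 5.06 FPKM in WT and 3.04 and 3.18 FPKM in ΔRRE (log2 change 2.15 ± 0.29 SE, limma adjusted p = 0.0220). Both were separated at the 2 time points, as their choice among the largest rises required.

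*Gpcpd1* and *Lpin1* were also among the 15 largest rises. *Gpcpd1*, which cleaves glycerophosphocholine, stood at 23.5 and 22.5 FPKM in WT and 19.4 and 17.2 FPKM in ΔRRE at CT6 and at 41.6 and 75.2 FPKM in WT and 75.8 and 85.0 FPKM in ΔRRE at CT10 (log2 change 1.71 ± 0.22 SE, limma adjusted p = 0.0197). *Lpin1*, a phosphatidic acid phosphatase, stood at 12.6 and 6.79 FPKM in WT and 6.40 and 6.67 FPKM in ΔRRE at CT6 and at 18.3 and 30.4 FPKM in WT and 21.7 and 42.8 FPKM in ΔRRE at CT10 (log2 change 1.77 ± 0.31 SE, limma adjusted p = 0.0422). In both the lowest CT10 library was WT replicate 1.

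Others of the 15 largest rises were *Pfkfb3*, which sets the level of fructose 2,6-bisphosphate (1.10 to 4.91 FPKM as the mean of 4 libraries, log2 change 2.23 ± 0.40 SE, limma adjusted p = 0.0455), and *Slc5a6*, the sodium-dependent multivitamin transporter (2.66 to 8.33 FPKM, log2 change 1.62 ± 0.16 SE, limma adjusted p = 0.0163). *Lonrf1* rose too (0.844 to 2.85 FPKM, log2 change 1.55 ± 0.27 SE, limma adjusted p = 0.0422), as did *Snord80* (0.958 to 3.93 FPKM, log2 change 1.91 ± 0.33 SE, limma adjusted p = 0.0429). *Snord80* is a small nucleolar RNA encoded inside another gene, so its reads cannot be told apart from those of its host.

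The largest falls were those of 2 β-tubulin genes, building blocks of microtubules. *Tubb2a* (chr13:34074274-34078007, minus strand) was at 78.8 and 58.4 FPKM in WT and 60.2 and 104 FPKM in ΔRRE at CT6. It was at 19.96 and 4.17 FPKM in WT and 5.10 and 5.48 FPKM in ΔRRE at CT10 (log2 change -3.38 ± 0.45 SE, limma adjusted p = 0.0205). *Tubb2b*, its neighbour at chr13:34126748-34130466, went from 7.74 and 5.997 FPKM in WT and 6.22 and 10.3 FPKM in ΔRRE to 1.95 and 0.339 FPKM in WT and 0.785 and 0.611 FPKM in ΔRRE (log2 change -3.11 ± 0.43 SE, limma adjusted p = 0.0221). In both genes WT CT10 replicate 1 was the highest of the CT10 libraries and still under every CT6 library. The coding sequences of the 2 genes are nearly the same, so reads may have been split between them, and the values of *Tubb2b* are uncertain.

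Metabolic genes were also among the large falls. *Pdk4*, the kinase that switches off pyruvate dehydrogenase, went from 3.23 and 0.738 FPKM in WT and 5.17 and 6.09 FPKM in ΔRRE to 0.455 and 0.242 FPKM in WT and 0.357 and 0.464 FPKM in ΔRRE (log2 change -2.71 ± 0.49 SE, limma adjusted p = 0.0459). WT CT6 replicate 2 was close to the CT10 libraries of *Pdk4* without overlapping them. *Chka*, choline kinase α, stood at 14.1 and 18.3 FPKM in WT and 18.3 and 39.4 FPKM in ΔRRE at CT6 and at 4.88 and 4.81 FPKM in WT and 6.57 and 4.89 FPKM in ΔRRE at CT10 (log2 change -1.97 ± 0.24 SE, limma adjusted p = 0.0197). The highest CT6 library of both *Pdk4* and *Chka* was ΔRRE replicate 2.

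*Clpx* (chr9:65294260-65330658, plus strand), a mitochondrial unfoldase that also activates the first enzyme of haem synthesis, was at 51.5 and 83.6 FPKM in WT and 95.4 and 137 FPKM in ΔRRE at CT6. At CT10 it was at 29.2 and 18.4 FPKM in WT and 40.7 and 29.6 FPKM in ΔRRE (log2 change -1.61 ± 0.22 SE, limma adjusted p = 0.0220). The CT6 libraries of ΔRRE were above those of WT, and all 4 were above CT10. *Lgalsl*, a galectin-like gene, went from 4.74 and 3.73 FPKM in WT and 6.18 and 7.56 FPKM in ΔRRE to 1.36 and 1.37 FPKM in WT and 2.53 and 2.68 FPKM in ΔRRE (log2 change -1.46 ± 0.15 SE, limma adjusted p = 0.0163). *Ypel2* went from 4.67 and 4.002 FPKM in WT and 8.44 and 8.88 FPKM in ΔRRE to 1.39 and 0.477 FPKM in WT and 1.85 and 1.45 FPKM in ΔRRE (log2 change -2.29 ± 0.27 SE, limma adjusted p = 0.0188). Both had higher values in ΔRRE than in WT at each time point.

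Further falls of this size were those of *Lrfn3* (3.42 to 0.733 FPKM as the mean of 4 libraries), *St5* (15.5 to 4.06 FPKM), *Mpzl1* (2.36 to 0.522 FPKM), *Ndrg1* (6.73 to 2.25 FPKM), the manganese transporter *Slc30a10* (7.46 to 2.49 FPKM), *Fam89a* (5.02 to 1.78 FPKM) and *Dtx4* (2.98 to 1.07 FPKM). Their log2 changes ran from -2.40 to -1.44, with limma adjusted p from 0.0221 to 0.0485.

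**Figure D2:**
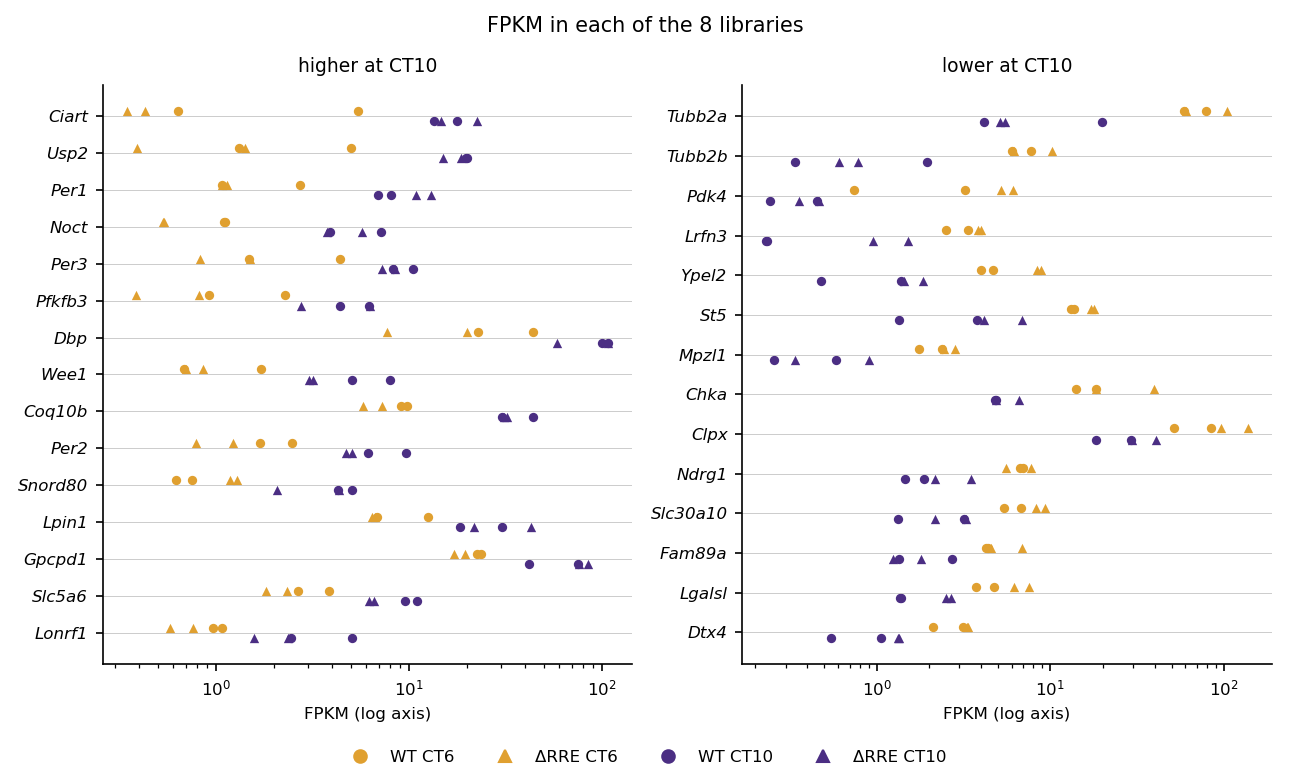
FPKM on a log axis in each of the 8 libraries for the 15 largest rises (left) and 14 of the 15 largest falls (right) among the genes past the threshold, with CT6 in orange, CT10 in purple, circles for WT and triangles for ΔRRE. By the choice of these genes no purple symbol overlaps with an orange one in its row, and the spread within a time point is wide for *Ciart* at CT6 (0.344 to 5.42 FPKM) and narrow for *Coq10b* at CT10 (30.2 to 44.2 FPKM).

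Calls among genes of fuel metabolism are given by list. Over all genes tested, 0.436% were called higher at CT10 and 0.525% lower. *Gys2*, the liver glycogen synthase, was at 40.2 and 43.1 FPKM in WT and 40.9 and 30.02 FPKM in ΔRRE at CT6 and at 118 and 131 FPKM in WT and 106 and 56.5 FPKM in ΔRRE at CT10 (log2 change 1.36 ± 0.21 SE, limma adjusted p = 0.0290). With *Pfkfb3* it made 2 rises among 17 genes of glycolysis and glycogen, whose median change was -0.09. *Slc37a4*, the transporter that brings glucose 6-phosphate into the endoplasmic reticulum, was the 1 riser of 9 gluconeogenesis genes (38.7 ± 8.97 FPKM at CT6 and 69.2 ± 8.25 FPKM at CT10, SD, n = 4 each, log2 change 0.86 ± 0.14 SE, limma adjusted p = 0.0367), and no gene of that list fell. Of all 11244 genes tested, 5695 were above 0, and 6.8% had an unadjusted p under 0.05 upward. The gluconeogenesis list had 3 calls upward with all 24 libraries, beside 212 of all 11244 genes tested. It had 7 of 9 genes above 0, 5 with an unadjusted p under 0.05 and a median of 0.35. The median was 0.15 in WT and 0.42 in ΔRRE, and the 9 genes summed to 3786 and 3150 FPKM in the ΔRRE CT10 libraries, against 1455 to 2141 FPKM in the other 6.

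Among 24 PPARα targets and ketogenic genes, 1 rose and 1 fell, with a median of 0.01. *Cpt1a*, which is needed for the entry of long-chain fatty acids into mitochondria, was at 63.1 and 54.0 FPKM in WT and 53.7 and 49.6 FPKM in ΔRRE at CT6 and at 98.8 and 93.2 FPKM in WT and 111 and 131 FPKM in ΔRRE at CT10 (log2 change 0.97 ± 0.13 SE, limma adjusted p = 0.0220). The faller was *Pdk4*. *Nampt*, the rate-limiting enzyme of NAD salvage, rose alone among 9 genes of NAD synthesis and sirtuins (7.85 ± 0.874 FPKM at CT6 and 16.8 ± 4.50 FPKM at CT10, SD, n = 4 each, log2 change 1.06 ± 0.17 SE, limma adjusted p = 0.0310). In both lists the remaining genes did not pass.

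Cholesterol synthesis genes were lower at CT10 by their means, without a single call. All 24 genes of the list had a negative change, with a median of -0.88, and 8 had an unadjusted p under 0.05. Of all 11244 genes tested, 5549 had a negative change, and 7.27% had an unadjusted p under 0.05 downward. *Hmgcs1*, an early enzyme of the pathway, stood at 349 and 58.4 FPKM in WT and 43.8 and 160.0 FPKM in ΔRRE at CT6 and at 74.4 and 16.7 FPKM in WT and 17.6 and 20.8 FPKM in ΔRRE at CT10 (log2 change -2.07 ± 0.66 SE, limma adjusted p = 0.200). WT CT6 replicate 1 was far above its replicate, and the groups overlapped. The 24 genes summed to 3183 and 919 FPKM in the WT CT6 libraries, 747 and 1672 FPKM in those of ΔRRE, and 664 to 1275 FPKM at CT10. *Sc5d*, a late enzyme, had the next smallest p, with means of 215 to 99.4 FPKM (log2 change -1.06, limma adjusted p = 0.246).

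For fatty acid synthesis the means were also lower in 14 of 15 genes, with a median of -0.50 and none past the threshold. The list summed to 2928 and 1808 FPKM in the WT CT6 libraries and 1754 and 2587 FPKM in those of ΔRRE. At CT10 it summed to 1470 to 2303 FPKM, so the time points overlapped. *Acacb* (8.604 to 4.49 FPKM, log2 change -0.88, limma adjusted p = 0.165) and *Fasn* (37.9 to 16.7 FPKM, log2 change -1.10, limma adjusted p = 0.211), the enzymes that make malonyl-CoA at mitochondria and palmitate, had the smallest p. Both overlapped between the time points. *Fasn* was at 71.5 and 26.4 FPKM in WT and 17.2 and 36.6 FPKM in ΔRRE at CT6. At CT10 it was at 29.2 and 14.9 FPKM in WT and 12.2 and 10.4 FPKM in ΔRRE. For 15 genes of bile acid synthesis and transport the median was 0.04 with no call. *Hsd3b7* (log2 change -0.52, limma adjusted p = 0.107) and the bile salt export pump *Abcb11* (log2 change -0.68, limma adjusted p = 0.148) had the smallest p there. With all 24 libraries 1 gene of the list was called upward and 2 downward, beside 212 and 255 of all 11244 genes tested. The one upward was *Cyp7a1*, the rate-limiting enzyme of bile acid synthesis, which stood at 30.3 and 13.0 FPKM in WT and 5.39 and 40.1 FPKM in ΔRRE at CT6 and at 68.8 and 81.5 FPKM in WT and 40.8 and 47.9 FPKM in ΔRRE at CT10, without overlap (log2 change 1.74, limma adjusted p = 0.189 in the fit of 8 libraries).

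No gene of the xenobiotic list passed, although the first enzyme of haem synthesis came near. *Alas1* was at 98.2 and 127 FPKM in WT and 26.8 and 35.9 FPKM in ΔRRE at CT6 and at 178 and 395 FPKM in WT and 203 and 384 FPKM in ΔRRE at CT10 (log2 change 2.20 ± 0.43 SE, limma adjusted p = 0.0570). The groups did not overlap, and both ΔRRE libraries were lower than those of WT at CT6. With 1 library left out, the limma adjusted p of *Alas1* ran from 0.0263 without WT CT10 replicate 1, the 1 of 8 reduced fits in which it passed, to 0.177 without WT CT10 replicate 2. *Por*, the electron donor of cytochromes P450, had 92.0 ± 33.2 FPKM at CT6 and 194 ± 46.2 FPKM at CT10 (SD, n = 4 each, log2 change 1.11, limma adjusted p = 0.0853). The median of the 23 genes was 0.12. With the spread of all 24 libraries 3 of them were called higher, *Alas1* and *Por* among these, beside 212 of all 11244 genes tested.

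Chaperones and stress genes also held calls, beside 0.436% of all genes tested called higher and 0.525% called lower. Of 19 heat shock genes 2 fell. They were *Hsp90aa1*, the inducible HSP90 (40.3 ± 10.8 FPKM at CT6 and 20.6 ± 2.50 FPKM at CT10, SD, n = 4 each, log2 change -0.94 ± 0.17 SE, limma adjusted p = 0.0459), and *Stip1*, which links HSP70 to HSP90 (28.6 ± 3.99 FPKM at CT6 and 18.5 ± 1.95 FPKM at CT10, SD, n = 4 each, log2 change -0.62 ± 0.11 SE, limma adjusted p = 0.0459). *Hsp90aa1* lost its call when the spread came from all 24 libraries (limma adjusted p = 0.0668), the 1 gene of the 108 to do so. *Herpud1*, a part of the machinery that degrades proteins of the endoplasmic reticulum, was the 1 riser among 19 genes of the unfolded protein response (78.1 ± 15.3 FPKM at CT6 and 177 ± 22.9 FPKM at CT10, SD, n = 4 each, log2 change 1.19 ± 0.16 SE, limma adjusted p = 0.0205). That list had a median of -0.23.

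The rest of the lists are given by their counts, beside 0.436% of all genes tested called higher and 0.525% called lower. *Klf13* rose as 1 of 9 KLF factors (4.50 ± 2.26 FPKM at CT6 and 11.4 ± 0.369 FPKM at CT10, SD, n = 4 each, log2 change 1.42 ± 0.25 SE, limma adjusted p = 0.0422), and *Wee1* as 1 of 7 cell cycle genes, whose median was -0.64. Of 16 glucocorticoid-responsive genes *Per1* alone passed, and the median was 0.63. In WT the median was 0.15 and in ΔRRE 0.94. The 16 genes, *Mt1* and *Mt2* among them, summed to 5684 and 3958 FPKM in the ΔRRE CT10 libraries, against 1101 to 2082 FPKM in the other 6. None passed among 2 cold-inducible RNA-binding proteins (*Rbm3* 0.22, *Cirbp* 0.09), 6 immediate-early genes (*Myc* -1.02, *Egr1* -1.22), 13 genes of the insulin and IGF axis (*Igfbp4* 0.74, *Pik3r1* 0.60) and 11 ATF4 targets (*Atf5* -0.74, *Mthfd2* -0.94), all as log2 changes. The same was true of 23 genes of amino acid catabolism and the urea cycle (*Cbs* -0.38), 22 of ribosome biogenesis (*Nop2* 0.66, *Nolc1* 0.75), 17 of autophagy and the lysosome (*Bnip3* 0.84, *Mcoln1* 0.31) and 20 acute-phase proteins (*Orm2* 0.91, *Serpina3n* 0.58). Ribosome biogenesis had 18 of 22 genes above 0, with a median of 0.22, and acute-phase proteins 18 of 20, with a median of 0.19. Of all 11244 genes tested, 5695 were above 0. The acute-phase median was 0.02 in WT and 0.48 in ΔRRE, and the 20 genes summed to 25790 and 20740 FPKM in the ΔRRE CT10 libraries, against 10890 to 17450 FPKM in the other 6. *Serpina3n*, for example, had log2 changes of 0.13 in WT and 1.03 in ΔRRE.

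**Figure D3:**
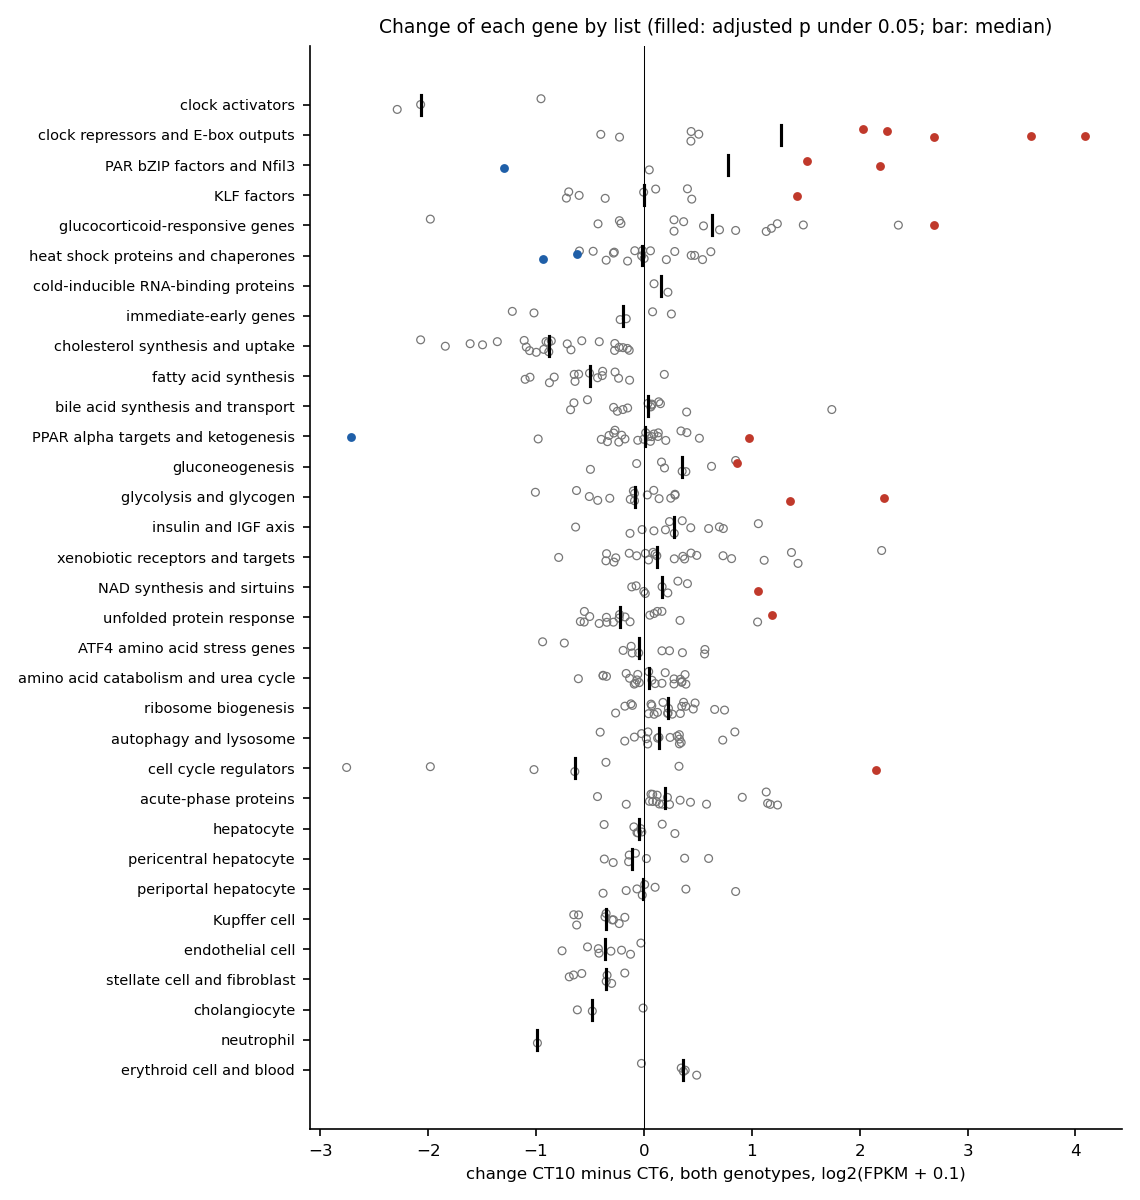
Log2 change from CT6 to CT10 in both genotypes (horizontal axis) for each tested gene of the lists (rows), with the list median as a black bar. Filled symbols passed a limma adjusted p under 0.05: 5 red symbols among the repressors and E-box outputs, and none in cholesterol synthesis, where all 24 open symbols lie below 0.

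Markers of the tissue were checked beside these changes. The 8 hepatocyte markers, with albumin at 18568 to 34968 FPKM, had a median change of -0.04 and no call. Of all 11244 genes tested, 5549 had a negative change. Markers of other liver cells were lower on average at CT10: 9 of 9 of Kupffer cells (median -0.35), 8 of 8 of endothelial cells (median -0.36) and 7 of 7 of stellate cells and fibroblasts (median -0.35), none past the threshold. Their summed levels overlapped between the time points for Kupffer cells (53.8 to 138.9 FPKM at CT6, 41.5 to 97.5 FPKM at CT10) and endothelial cells (29.9 to 47.2 and 26.7 to 37.1 FPKM). For stellate cells and fibroblasts they did not (46.0 to 55.4 and 34.3 to 45.7 FPKM). In a piece of tissue, fewer cells of a type and less RNA per cell cannot be told apart, and the part of either in the fallers was not tested. The 3 cholangiocyte genes tested also had negative changes (2 of 3 after rescaling), as did the 1 of neutrophils, while the median was 0.37 for blood, -0.11 for pericentral and near 0 for periportal hepatocyte markers. These medians pool opposite signs in WT and ΔRRE: -0.42 and 1.19 for blood, 0.12 and -0.17 for pericentral, and -0.34 and 0.30 for periportal markers. Markers of lymphocytes, pancreas, adipocytes and muscle summed to at most 2.28 FPKM.

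The 6 time points placed the transition in the daily profile. Of the 49 risers, 24 had their highest mean (4 libraries of both genotypes) at CT10 and 20 at CT14, and 38 were lowest at CT2 or CT6. Of the 59 fallers, 48 had their lowest mean at CT10 and 11 at CT14, and 28 were highest at CT2. Over all genes tested, 20.99% were highest and 19.06% lowest at CT10. These shares follow in part from the choice of the genes, since CT6 and CT10 were among the time points ranked.

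The profiles differed in how long a level lasted. *Dbp* rose from 0.535 FPKM at CT2 through 23.6 FPKM at CT6 to 93.5 FPKM at CT10, and was back at 25.4 FPKM by CT14. *Gpcpd1* was also sharp, at 20.6, 69.4 and 35.0 FPKM at CT6, CT10 and CT14. *Coq10b* stayed up longer (34.4 FPKM at CT10, 30.4 FPKM at CT14), and *Per2* was still rising, from 6.37 FPKM at CT10 to 16.9 FPKM at CT14 and 17.2 FPKM at CT18. *Chka* fell from 58.8 FPKM at CT2 to 5.29 FPKM at CT10 and regained 19.5 FPKM at CT14, whereas *Clpx* stayed low (29.5 and 26.2 FPKM). Fitted the same way, the step from CT2 to CT6 gave 2 calls (0.0178% of the genes tested), CT10 to CT14 gave 327 (2.91%), CT14 to CT18 gave 71 (0.631%), CT18 to CT22 gave 200 (1.78%) and CT22 to CT2 gave 1 (0.00889%). Neighbouring steps share libraries, so these counts are not independent.

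**Figure D4:**
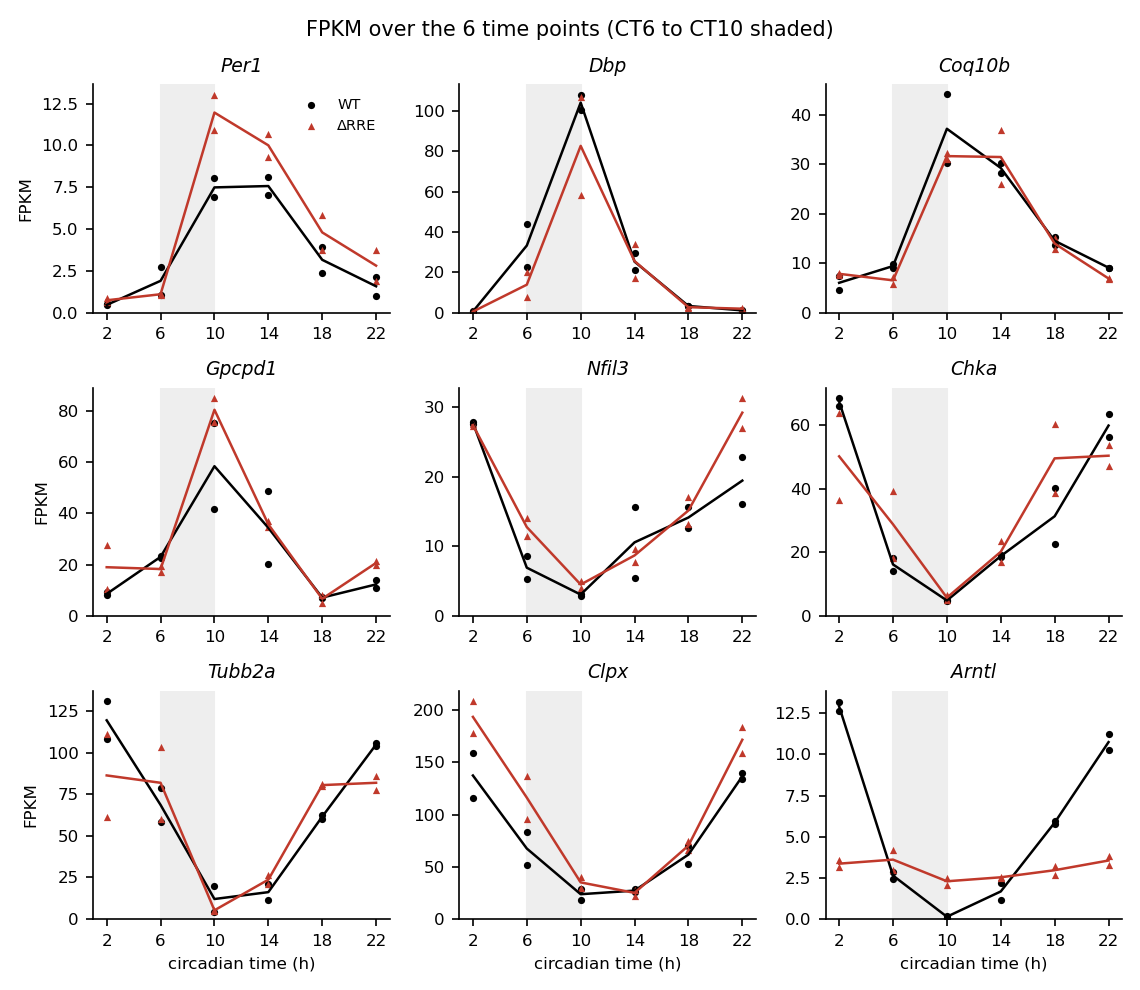
FPKM over circadian time (h) of 9 genes in WT (black) and ΔRRE (red), with each library as a symbol, the mean of 2 libraries as a line and the interval from CT6 to CT10 shaded. *Dbp* and *Gpcpd1* peak at CT10, *Nfil3*, *Chka* and *Tubb2a* have their lowest level there, and *Arntl* falls to 0.0919 and 0.195 FPKM in WT but stays at 2.096 and 2.50 FPKM in ΔRRE.

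Both genotypes were then compared for the same change. With 2 libraries against 2, 3 genes passed in WT alone (0.0267% of those tested): *Arntl*, *Lrfn3* and the gene model AC132455.2, all lower at CT10. In ΔRRE alone 2 passed (0.0178%): *Coq10b* and the gene model Gm14097, both higher. The gene models are named here outside the rule, after their values were seen. Genes chosen in one genotype by an unadjusted p under 0.01 were looked up in the libraries of the other. Of 264 genes chosen in WT, 235 (89.0%) changed in the same direction in ΔRRE, and of 325 genes chosen in ΔRRE, 272 (83.7%) did so in WT, against 62.2% of all genes tested.

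The size of the change was smaller in the genotype not used for the choice. The median change in the chosen direction was 1.08 in WT and 0.56 in ΔRRE for genes chosen in WT, and 1.13 in ΔRRE and 0.55 in WT for genes chosen in ΔRRE. Across all 11244 genes, which are not independent replicates, the changes of the 2 genotypes correlated with Pearson's r = 0.325 and Spearman's rho = 0.326. Among the 49 risers the change was larger in ΔRRE in 26, and among the 59 fallers in 21. All 108 genes had the same sign in both genotypes, which the joint fit favours by its construction.

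No gene differed between the genotypes in its change from CT6 to CT10 at a limma adjusted p under 0.05. The lowest adjusted p, that of *Raet1e*, was 0.228. An unadjusted p under 0.05 was seen for 414 genes (3.68%), among them 9 of the 108. That is fewer than the 562 expected at this threshold if no gene differed. *Arntl* had a difference of 2.91 ± 0.47 SE (ΔRRE minus WT), and passed with a limma adjusted p of 0.00947 when all 24 libraries gave the spread. *Cry1*, the repressor with its own RRE in an intron, was at 1.69 and 1.97 FPKM in WT at CT6 and at 2.63 and 2.98 FPKM at CT10. In ΔRRE it was at 3.86 and 4.76 FPKM at CT6 and at 1.90 and 2.18 FPKM at CT10. The direction thus differed, with every ΔRRE CT6 library above the rest, and the difference of -1.63 ± 0.33 did not pass.

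The other genes with the smallest p for the difference had changes of opposite sign in the 2 genotypes. *Raet1e*, a ligand of the NKG2D receptor, was at 4.20 and 4.999 FPKM and 7.16 and 7.50 FPKM in WT at CT6 and CT10. In ΔRRE it was at 16.6 and 15.2 FPKM and 5.50 and 4.64 FPKM (difference -2.30 ± 0.26 SE), the smallest p of all genes. *Raet1d*, which overlaps with it and is nearly identical in sequence, had a difference of -2.08 ± 0.42, and the reads of the 2 genes may not be separable. The exonuclease gene *Trex1* (difference -3.50 ± 0.68) and the carbonic anhydrase gene *Car3* (-2.10 ± 0.44) had log2 changes of -2.42 and -1.71 in ΔRRE, and of 1.07 and 0.39 in WT. *Atg16l2* (1.37 ± 0.28), the antisense gene *Gm32511* (2.13 ± 0.43) and the pseudogene *Zfp-ps* (2.70 ± 0.57) had differences in the other direction.

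Metallothioneins, which bind zinc and copper, were high in the ΔRRE CT10 libraries. *Mt1* was at 135 and 76.4 FPKM at CT6 and 63.2 and 155 FPKM at CT10 in WT. In ΔRRE it was at 71.7 and 23.4 FPKM at CT6 and at 1488 and 824 FPKM at CT10 (difference 4.79 ± 0.87). Its neighbour *Mt2* went from 26.6 and 7.62 FPKM to 695 and 123 FPKM in ΔRRE. The acute-phase gene *Lcn2* was also highest in these 2 libraries, at 79.4 and 87.1 FPKM, against at most 24.8 FPKM in the other 6 of CT6 and CT10. Among the remaining time points the means of ΔRRE at CT14 were high too, at 104 FPKM for *Lcn2* and 784 FPKM for *Mt1*. ΔRRE CT10 replicate 1 is the library with the high blood markers, while replicate 2 had 1270 FPKM of them, within the range of the rest. The part of the blood markers in these changes was not tested.

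**Figure D5:**
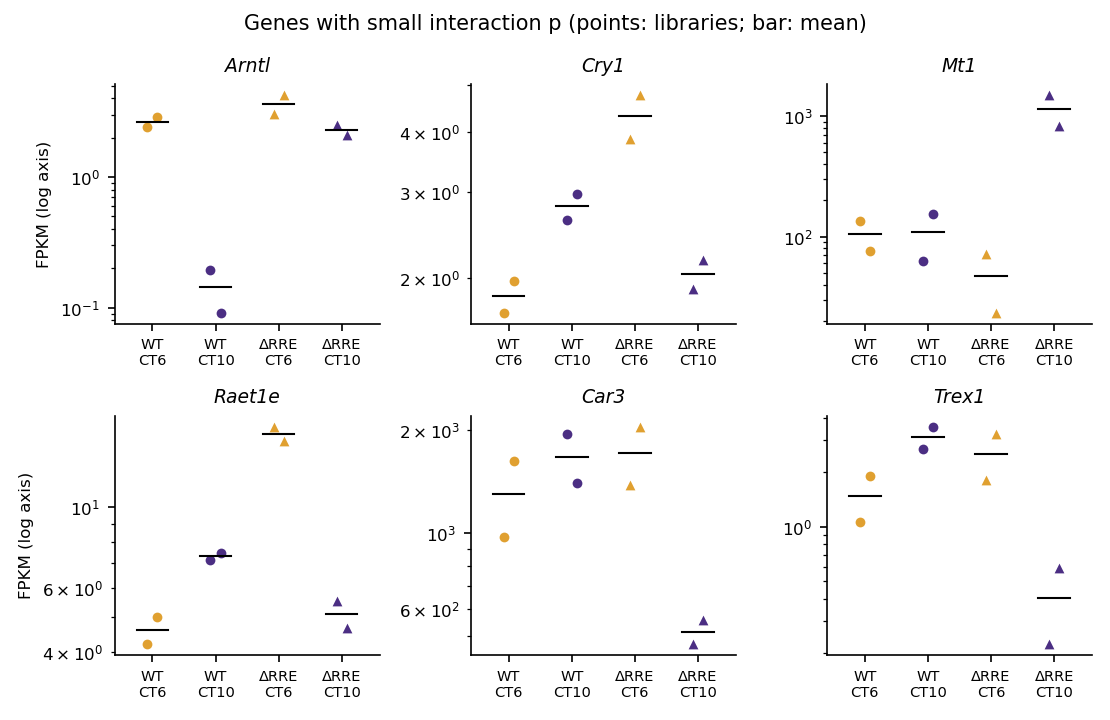
FPKM on log axes in each library (symbols) and group mean (bars) for 6 genes with a small p for the difference between genotypes, with CT6 in orange and CT10 in purple. *Arntl* drops at CT10 in WT, *Cry1*, *Raet1e*, *Car3* and *Trex1* have their lower ΔRRE values at CT10, and *Mt1* reaches 824 and 1488 FPKM in ΔRRE at CT10, while none of the 6 passed an adjusted p under 0.05 for the difference in the fit of 8 libraries.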

How the data were processed

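Poly(A) RNA of mouse liver was sequenced by the authors in 24 libraries, of which the 8 of CT6 and CT10 were used, grouped by their titles. Per the submitters' processing notes, Trimmomatic 0.39, HISAT2 2.1.0 and StringTie 1.3.5 were used with the mm10 build, and the deposited values are FPKM per gene and sample with no replicates pooled. FPKM keep neither read numbers nor, in the sources used here, the strand setting, so no count test and no counting interval could be applied. FPKM are relative within a library: a large change in abundant transcripts shifts the rest. The per-sample tables were joined by gene identifier, and a series-wide table was not used.

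Changes were tested with limma 3.58.1 (R 4.3.3, moderated variance with an intensity trend, Benjamini-Hochberg adjustment) on log2(FPKM + 0.1) for the 11244 of 54733 genes that averaged 1 FPKM or more across the 24 libraries. The fit of both genotypes had genotype and time as terms (5 residual degrees of freedom), and a fit with 1 mean per group (4 residual degrees of freedom) gave each genotype and the difference between them. The procedure was tested on simulated data.

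Named were all genes of the clock lists, the called genes of the other lists or else the 2 with the smallest p, the 15 largest rises and the 15 largest falls among called genes without overlap of the libraries (gene models without a name left out), and the 5 smallest interaction p in each direction, of which some results are not reported here. *Lcn2*, *Mt2*, *Sphk2*, *Cyp7a1*, *Cgn* and *Tjp3* were named after their values were seen, as were the genes under Other observations. The comparison, its lists and its tests were chosen with earlier results of these data known. Gene positions are from GENCODE M21 (GRCm38, the same assembly as mm10), and promoters from RefSeq (GRCm38.p6). The deviations of same-numbered libraries correlated at r = 0.19 in WT and -0.00224 in ΔRRE, so the numbers were not used as pairs. Alternatives were the constant, the filter, the scaling, the prior, the block, the terms, the threshold and leaving out each library. Figures were drawn with matplotlib 3.10.9.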

Additional observations from a re-analysis of the deposited data

Results flagged for a closer look

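*Arntl* (*Bmal1*) changed differently between CT6 and CT10 in the 2 genotypes. It stood at 2.42 and 2.86 FPKM at CT6 and 0.195 and 0.0919 FPKM at CT10 in WT, and at 3.01 and 4.21 FPKM and 2.50 and 2.096 FPKM in ΔRRE. The difference of the changes was 2.907 on the log2(FPKM + 0.1) scale (ΔRRE minus WT), with a limma adjusted p of 0.00947 when the spread was estimated from all 24 libraries. With the 8 libraries alone it did not pass (limma adjusted p = 1, unadjusted p = 0.000296). Since the lower WT value at CT10 lies below the added constant, the size of the difference rests in part on that constant. The deletion itself lies in this gene.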

How the results depend on the processing

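Over both genotypes the numbers of genes called, higher and lower were 108, 49 and 59 by limma. They were 467, 212 and 255 with all 24 libraries, 274, 121 and 153 at an adjusted p under 0.1, 1, 1 and 0 at an adjusted p under 0.01, and 0, 0 and 0 with no filter on low values, where 2433 of 28380 genes had an unadjusted p under 0.05. They were 65, 25 and 40 with a prior without trend, and 69, 36 and 33 with no genotype term. Leaving out 1 library gave 2 to 98, 1 to 52 and 0 to 61. WT alone (3 called) gave 0 with a constant of 1 FPKM, 0 with a mean of at least 5 FPKM, 78 with no filter, 82 with all 24 libraries, 0 at an adjusted p under 0.01, and 0 to 12 when 1 library was left out. ΔRRE alone (2 called) gave 6 with a constant of 1 FPKM, 41 with no filter, 4 with a mean of at least 5 FPKM, 0 after rescaling by the median of ratios, 82 with all 24 libraries, 1 with a prior without trend, 10 with a robust prior, 24 and 0 at an adjusted p under 0.1 and 0.01, and 0 to 41 when 1 library was left out. The difference between genotypes (0 called, 414 at an unadjusted p under 0.05) gave 85 calls with no filter, 1 with all 24 libraries and 0 to 2 when 1 library was left out, and those of the reduced fits did not include *Arntl*. The share of genes chosen in WT that went the same way in ΔRRE was 59.7% with no filter, 92.9% with a mean of at least 5 FPKM and 72.8% to 89.3% without 1 library, and the share chosen in ΔRRE was 69.6% with no filter, 88.5% with all 24 libraries and 72.3% to 87.0% without 1 library. The cause of these shifts was not tested. With the replicate block, which the numbers do not support as a pairing, 16 genes were called (6 higher, 10 lower), 0 in WT and 0 in ΔRRE. None of the 108 called genes changed sign when a library was left out, and none of the called genes that are named did so under any alternative. Of the named genes not called, 8 changed sign under at least 1 alternative, *Hlf*, *Cirbp*, *Atg16l2*, *Gm32511* and *Raet1d* among them. Over the 118 named genes and 18 alternatives, 1531 values kept their side of the threshold, 554 lost it and 16 gained it. Depth is unknown, so genes near 1 FPKM are the least certain.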

Other observations

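Other genes past the threshold are described here, all picked after their values were seen and with no test of their own as groups. Some of the fallers belong to the cytoskeleton and to cell junctions, of which no count over all members was made. *Marveld1*, picked in the same way, was higher at CT10 (log2 change 1.065 ± 0.139 SE, limma adjusted p = 0.0197). *Actb*, which encodes β-actin, had means of 198 ± 16.4 FPKM at CT6 and 122 ± 11.8 FPKM at CT10 (SD, n = 4 each, log2 change -0.70, limma adjusted p = 0.0309). The α-tubulin gene *Tuba1a* had 7.50 ± 1.84 FPKM at CT6 and 3.84 ± 1.02 FPKM at CT10 (SD, n = 4 each, log2 change -0.94, limma adjusted p = 0.0485), beside the fallers *Tubb2a* and *Tubb2b*. The libraries of *Tuba1a* overlapped, with a lowest CT6 value of 5.04 FPKM and a highest CT10 value of 5.28 FPKM. The tight junction genes *Tjp3* and *Cgn*, which encode ZO-3 and cingulin, had log2 changes of -1.29 ± 0.15 and -0.87 ± 0.11 SE, and their E-boxes are given above.

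Genes of mitochondria and cofactors went both ways. *Nadk*, the kinase that makes NADP from NAD, was higher at CT10 (29.0 ± 3.30 FPKM at CT6 and 51.4 ± 4.81 FPKM at CT10, SD, n = 4 each, log2 change 0.82, limma adjusted p = 0.0234), next to the risers *Nampt*, *Coq10b* and *Slc5a6*. *Mcu*, the pore of the mitochondrial calcium uniporter, was lower (8.59 ± 1.89 FPKM at CT6 and 4.50 ± 0.436 FPKM at CT10, SD, n = 4 each, log2 change -0.90, limma adjusted p = 0.0221), next to *Clpx*. *Pnpla2*, the adipose triglyceride lipase, rose with a log2 change of 0.82 ± 0.14 SE, and so did the nuclear receptor gene *Esrra* (0.64 ± 0.12) and *Il6ra*, the receptor of interleukin-6 (1.10 ± 0.19). *Psen2*, a subunit of γ-secretase, fell too (-1.07 ± 0.15), as did the threonyl-tRNA synthetase gene *Tars* (-0.98 ± 0.14). *Ddc*, aromatic L-amino acid decarboxylase, was lower too (55.7 ± 9.48 FPKM at CT6 and 21.5 ± 5.41 FPKM at CT10, SD, n = 4 each, log2 change -1.39, limma adjusted p = 0.0197).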
